A study of Mus musculus with 16 samples.

Results

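The 41 genes described here encode the core of the DNA replication fork and the enzymes that supply its deoxynucleotides. They were chosen by name, and each is read from the probe that carries its symbol alone, taking the probe with the highest mean where there are several. All 41 have such a probe and all passed the filter on dim probes, so they are 41 of the 16427 genes tested. Their symbols and gene ids all matched RefSeq (assembly GRCm38.p6), on 17 chromosomes.

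The RNA came from naive CD4+ T cells of B6 mice, sorted as CD62Lhi and CD25- from spleen and lymph nodes and cultured for 24 h (1000000 cells per ml, 10% serum). Latex beads gave the stimulus, either anti-CD3 alone, a signal through the antigen receptor, or anti-CD3 with anti-CD28, a second signal through the costimulatory receptor CD28. The 4 groups were Dec1 knockout cells under both antibodies (KO_CD3CD28), knockout cells under anti-CD3 alone (KO_CD3), wild-type cells under both antibodies (WT_CD3CD28) and wild-type cells under anti-CD3 alone (WT_CD3), with 4 arrays each and no unstimulated group. Dec1, encoded by Bhlhe40, is a basic helix-loop-helix repressor, and the labels do not say which part of the gene is missing or whether it is missing from T cells only. Mouse age is not given, and the labels do not say how many mice replicates 1 to 4 came from, so p-values cover only the spread between these arrays, which may be partly technical.

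A resting T cell holds few replication proteins, and an activated one makes them late in G1, largely under the E2F transcription factors. At a fork the CMG helicase opens the duplex, RPA coats the single strands, primase and polymerase alpha start each piece, and polymerases epsilon and delta extend the leading and lagging strands while held by the PCNA clamp. Ribonucleotide reductase and thymidylate synthase make the deoxynucleotides they consume. Values are log2 signals of array probes, so a difference of 1 is a doubling. In a population of cells, fewer cells that make an RNA and less of it per cell cannot be told apart.

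Bhlhe40 itself was at a log2 level of 5.88 ± 0.14 in KO_CD3CD28 and 5.53 ± 0.32 in KO_CD3 (SD, n = 4), against 9.51 ± 0.71 in WT_CD3CD28 and 7.56 ± 0.42 in WT_CD3. Arrays of a group correlated at 0.97 to 0.995 over the tested genes. Replicates 1 and 2 of every group lay on the other side of the leading component of the within-group deviations (39.6% of their variance) from replicates 3 and 4, and the labels name no batch that parts them. Under both stimuli Xist was high in replicates 2 and 4 of the knockout and in replicate 1 of the wild type, and low in the others, so the 4 replicates of a genotype were not all from the same mice. On WT_CD3 replicate 3, 39 of the 41 genes had their highest level within that group, on KO_CD3 replicate 2, 30 had their lowest, and on WT_CD3CD28 replicate 4, 22 had their lowest and 14 their highest. The proliferation marker Mki67 was likewise highest of its group on WT_CD3 replicate 3, at a log2 level of 8.62, and lowest on KO_CD3 replicate 2, at 6.37. On WT_CD3CD28 replicate 4 it was instead the highest of its group, at 11.38.

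The label of the cells was checked against their markers. The 10 tested T cell identity genes of 12, Cd3e and Cd4 among them, were all above background and averaged 10.78 to 10.88 in KO_CD3CD28 and 11.09 to 11.31 in KO_CD3, and 10.67 to 11.09 in WT_CD3CD28 and 11.28 to 11.50 in WT_CD3. With costimulation 4 of them were called lower in knockout cells and 6 in wild-type cells. Of all genes, 17.6% and 13% were called lower with costimulation in knockout and wild-type cells, and 20.4% and 16% higher. The 9 tested B cell markers of 12 averaged 6.14 to 6.22 in KO_CD3CD28 and 6.35 to 6.76 in KO_CD3, and 6.06 to 6.31 in WT_CD3CD28 and 6.57 to 6.74 in WT_CD3. The 12 tested myeloid markers of 13 averaged 6.37 to 6.51 in KO_CD3CD28 and 6.68 to 7.15 in KO_CD3, and 6.35 to 6.48 in WT_CD3CD28 and 6.80 to 6.94 in WT_CD3. Of these, 5 B cell and 7 myeloid markers were called lower with costimulation in knockout cells, and 5 and 5 in wild-type cells. Near background were 5 of the 9 B cell and 7 of the 12 myeloid markers in KO_CD3CD28, 4 and 5 in KO_CD3, 5 and 7 in WT_CD3CD28 and 2 and 6 in WT_CD3. Of the genes that define these lineages, Cd79a was near background in all 4 groups, and Lyz2 in all but KO_CD3, where it was at 6.92 ± 1.29 (SD, n = 4). The 5 regulatory T cell markers, among them the activation genes Il2ra and Ctla4, averaged 10.05 to 10.24 in KO_CD3CD28 and 8.96 to 9.26 in KO_CD3, and 9.91 to 10.37 in WT_CD3CD28 and 9.42 to 9.82 in WT_CD3, with 5 and 3 of them called higher with costimulation. Of 6 tested CD8 T and NK cell markers of 10, 4 were called higher and 2 lower in each genotype. They averaged 7.75 in KO_CD3CD28, 7.87 in KO_CD3, 7.73 in WT_CD3CD28 and 7.84 in WT_CD3. Only 1 of them was near background in WT_CD3CD28 and 0 in each other group. Only 3 of 8 erythroid and platelet markers were tested, and 1 of them was called lower with costimulation in knockout cells. These 3 averaged 6.73 in KO_CD3CD28, 6.92 in KO_CD3, 6.64 in WT_CD3CD28 and 6.69 in WT_CD3, with 0 near background in each group. No marker of these lists was called between genotypes, where under anti-CD3 0.749% of all genes were called lower and 0.28% higher. With the replicate number as a block, 1 T cell identity, 1 myeloid, 1 CD8 T or NK cell and 2 regulatory T cell markers were called lower in knockout cells under anti-CD3, and 1 myeloid, 2 CD8 T or NK cell and 1 erythroid or platelet marker higher. In that fit 6.56% of all genes were called lower and 5.34% higher. The part of these markers in the results below was not tested.

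Promoter sequence was at hand for 33 of the 41 genes, in 38 RefSeq windows (GRCm38.p6) that run from 250 bases before a transcription start to 50 after. Gins1, Gins2, Gins4, Pole, Rfc2, Prim2, Gmnn and Tipin had none. E2F sites were searched because E2F factors are known for driving S phase genes, and the E-box because Dec1 is known to bind it. An E2F site (TTTGGCGC, TTTCCCGC, TTTCGCGC or TTTGCCGC on either strand) stood in 8 of the 38 windows, or 21.05%, against 2.26% of all 32851 promoter windows. An E-box (CACGTG, which reads the same on both strands) stood in 7 of them, or 18.42%, against 7.15% of all windows. The CCAAT box, in 39.47% against 37.41%, and the cell cycle element TTTGAA or TTTAAA, in 26.32% against 27.59%, were about as common as in other promoters over this window. From 100 bases before the start to 50 after, the CCAAT box stood in 34.21% of windows against 23.38% of all. The searched letters of different motifs do not overlap in the windows printed here.

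The first set of sequences shows E2F sites in capitals, in genes whose RNA differed between groups below, with Dck as the gene that moved least and has no match. Each is written on its gene's own strand from 100 bases before the start to 50 after.
Dtl, chr1:191575495-191575644, minus strand: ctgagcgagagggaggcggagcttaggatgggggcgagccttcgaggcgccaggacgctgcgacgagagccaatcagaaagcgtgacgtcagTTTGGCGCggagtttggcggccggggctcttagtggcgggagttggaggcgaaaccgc
Rfc3, chr5:151651159-151651308, minus strand: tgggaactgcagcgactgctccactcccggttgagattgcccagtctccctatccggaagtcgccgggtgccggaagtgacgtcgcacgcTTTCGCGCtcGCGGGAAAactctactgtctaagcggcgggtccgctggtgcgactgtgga
Lig1, chr7:13278726-13278875, plus strand: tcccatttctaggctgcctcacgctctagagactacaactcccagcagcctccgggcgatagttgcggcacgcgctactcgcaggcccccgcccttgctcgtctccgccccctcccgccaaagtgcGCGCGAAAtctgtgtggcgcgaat
Dck, chr5:88764913-88765062, plus strand: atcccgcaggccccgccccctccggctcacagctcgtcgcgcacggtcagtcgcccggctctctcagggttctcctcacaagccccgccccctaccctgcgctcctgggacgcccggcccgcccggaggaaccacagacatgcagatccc
In Dtl the site began 8 bases before the start. Rfc3 had a site 10 bases before the start and a second, on the other strand, that began at the start's base 1. The Lig1 site, also on the other strand, began at base 27, and this is 1 of its 3 windows. Gins3, Pola1, Pold1, Pold3 and Pole2 had a site as well. By mean log2 difference with costimulation over both genotypes, these 5 ranked 22, 6, 37, 21 and 27 of the 41 genes. Dtl, Rfc3, Lig1 and Dck ranked 3, 19, 18 and 41, and Rrm2, Tyms and Cdc45 ranked 1, 7 and 4. The search found 0 exact E2F matches in the windows of Rrm2, Tyms and Cdc45, which says nothing of the factors themselves.

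The second set shows the E-box CACGTG in capitals, in Chaf1a and Tyms, whose RNA was lower in knockout cells under anti-CD3 below, and in Rpa1, whose RNA was not.
Chaf1a, chr17:56040316-56040465, plus strand: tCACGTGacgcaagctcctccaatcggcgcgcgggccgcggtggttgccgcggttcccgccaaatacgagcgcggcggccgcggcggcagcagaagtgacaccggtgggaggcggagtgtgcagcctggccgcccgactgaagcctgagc
Tyms, chr5:30073576-30073725, minus strand: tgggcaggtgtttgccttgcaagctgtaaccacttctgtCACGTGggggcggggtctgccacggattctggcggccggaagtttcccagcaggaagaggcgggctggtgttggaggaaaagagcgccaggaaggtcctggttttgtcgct
Rpa1, chr11:75348334-75348483, minus strand: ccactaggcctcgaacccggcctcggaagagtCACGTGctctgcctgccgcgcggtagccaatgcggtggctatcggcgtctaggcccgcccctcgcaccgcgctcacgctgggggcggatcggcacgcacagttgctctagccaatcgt
The box began 99, 61 and 68 bases before the start of Chaf1a, Tyms and Rpa1. Fen1, Lig1, Pola2 and Rfc1 also held a box. A match is a description of the letters and not a bound site.

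The next comparison asks what anti-CD28 adds to anti-CD3 in each genotype. Nearly the whole replication machinery was higher with costimulation. In knockout cells 39 of 41 genes rose (limma, adjusted p under 0.05 over all genes), against 20.4% of all genes called higher, and in wild-type cells 38 of 41 rose, against 16% of all genes. The median log2 difference over the 41 genes was 1.76 in knockout cells, or 3.38-fold, and 1.23 in wild-type cells, or 2.34-fold, where the medians of all genes were -0.06 and -0.03. In knockout cells 34 genes passed 2-fold and 18 passed 4-fold, and in wild-type cells 26 and 2 did. The 4 values with costimulation lay wholly above the 4 without it for 39 genes in knockout cells and for 37 in wild-type cells, against 18.7% and 16.2% of all genes. Rpa1 and Dck were not called in knockout cells, nor were Pold1, Pold2 and Dck in wild-type cells. With the replicate number as a block, 40 genes rose in knockout cells, Rpa1 among them (adjusted p = 0.0327), against 23.3% of all genes, and 41 in wild-type cells, against 18.8%. Replicates 1 and 2 gave larger median differences in knockout cells (1.97 and 2.26) than replicates 3 and 4 (1.44 and 1.51), and in wild-type cells the 4 values were 1.34, 1.40, 0.91 and 1.23. When every array was centred on the median of all its probes, the medians of all genes moved to 0.07 and 0.06 and those of the 41 genes to 1.89 and 1.32, and 75% rather than 53.8% of all calls in knockout cells were higher (69.3% rather than 55.1% in wild-type cells).

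**Figure D1:**
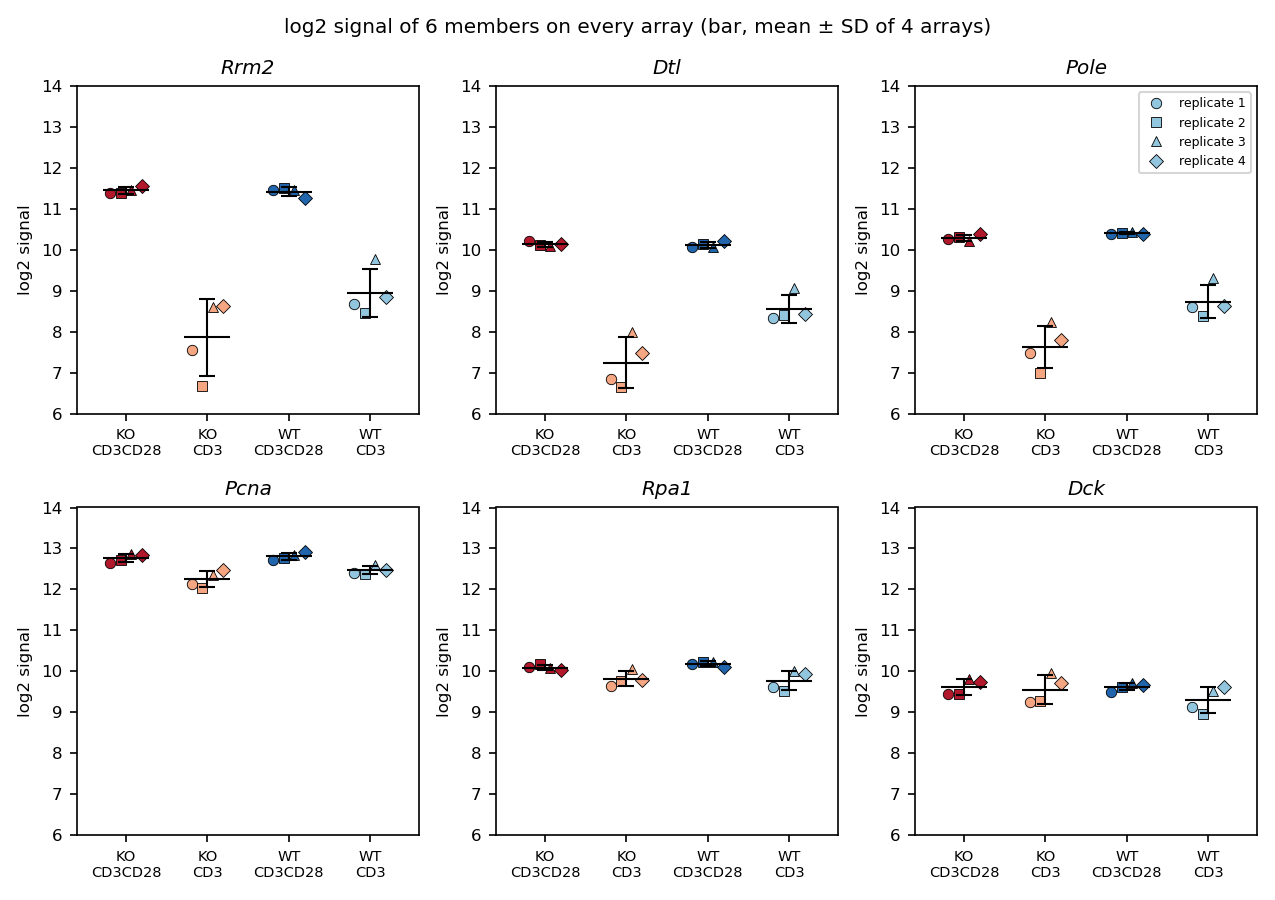
Log2 signal of Rrm2, Dtl, Pole, Pcna, Rpa1 and Dck (vertical axis) on each of the 16 arrays, by group (horizontal axis); symbols mark replicates 1 to 4 and bars the mean ± SD of 4 arrays. Rrm2, Dtl and Pole are high and tight with both antibodies and low and spread with anti-CD3, on average lowest in KO_CD3, while Pcna, Rpa1 and Dck shift little.

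Ribonucleotide reductase, which turns ribonucleotides into deoxyribonucleotides, held the gene with the largest difference in both genotypes. Rrm2, its small subunit, had log2 levels of 11.40, 11.38, 11.47 and 11.55 in KO_CD3CD28, against 7.55, 6.67, 8.60 and 8.63 in KO_CD3. The wild-type values of Rrm2 were 11.47, 11.50, 11.46 and 11.26 in WT_CD3CD28, against 8.69, 8.46, 9.77 and 8.86 in WT_CD3 on the log2 scale. The costimulated arrays of both genotypes lay close together, while the anti-CD3 arrays were widely spread, with KO_CD3 replicate 2 at the bottom and WT_CD3 replicate 3 at the top. The log2 difference of Rrm2 was 3.58 in knockout cells (SE 0.34, 12-fold, adjusted p = 3.07e-07) and 2.48 in wild-type cells (SE 0.34, 5.57-fold, adjusted p = 2.98e-05). Rrm1, the large subunit, rose by 2.38 and 1.61 log2 units in knockout and wild-type cells.

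The thymidylate enzymes rose too, and the salvage kinase for deoxycytidine did not. Tyms, thymidylate synthase, had log2 levels of 10.24, 10.36, 10.30 and 10.38 in KO_CD3CD28, against 7.58, 7.37, 8.27 and 8.31 in KO_CD3. In wild-type cells Tyms was at log2 levels of 10.39, 10.39, 10.38 and 10.38 in WT_CD3CD28, against 8.61, 8.51, 8.92 and 8.48 in WT_CD3. The 8 costimulated values of Tyms hardly differed, and none came near the anti-CD3 values. Its log2 difference was 2.44 in knockout cells (SE 0.17) and 1.75 in wild-type cells (SE 0.17). Dut, which removes dUTP, rose by 1.85 and 1.24 log2 units, and Tk1, the salvage kinase of thymidine, by 0.91 and 0.82. A dimmer probe of Tk1 gave larger log2 differences, 1.97 and 1.53, with the same calls. Dck, the salvage kinase of deoxycytidine, had log2 levels of 9.46, 9.45, 9.81 and 9.74 in KO_CD3CD28, against 9.26, 9.27, 9.96 and 9.72 in KO_CD3, and 9.50, 9.61, 9.71 and 9.67 in WT_CD3CD28, against 9.13, 8.96, 9.52 and 9.62 in WT_CD3. Both pairs of groups overlapped. Its log2 difference was 0.06 in knockout cells (95% interval -0.28 to 0.41, adjusted p = 0.792) and 0.32 in wild-type cells (adjusted p = 0.166, and 0.0168 with the replicate block). Dck was the smallest of the 41 by the mean of both genotypes.

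The PCNA clamp and its loader, the RFC complex, were all called higher in both genotypes, but the clamp changed little. Pcna, the ring that holds polymerases on DNA, had log2 levels of 12.65, 12.72, 12.86 and 12.85 in KO_CD3CD28, against 12.14, 12.03, 12.34 and 12.46 in KO_CD3, and 12.72, 12.76, 12.84 and 12.91 in WT_CD3CD28, against 12.40, 12.38, 12.61 and 12.48 in WT_CD3. Its group medians stood at the 98.4 to 99.5 percentiles of all probes, among the brightest on the array. The groups did not overlap in either genotype, and the log2 difference was 0.53 (SE 0.10, 1.44-fold) in knockout cells and 0.34 (SE 0.10, 1.27-fold) in wild-type cells. A second probe of Pcna gave 0.52 and 0.34. Rfc4, a small loader subunit, had log2 levels of 10.68, 10.61, 11.03 and 11.03 in KO_CD3CD28, against 8.48, 8.14, 9.31 and 9.55 in KO_CD3, and 10.61, 10.77, 10.77 and 11.11 in WT_CD3CD28, against 9.22, 9.17, 9.79 and 9.17 in WT_CD3. Replicates 3 and 4 of KO_CD3 were about 1 log2 unit above replicates 1 and 2. Its log2 difference was 1.97 in knockout cells (SE 0.24) and 1.48 in wild-type cells (SE 0.24). The other loader subunits rose by 1.35 to 2.06 in knockout cells and by 0.60 to 1.20 in wild-type cells, Rfc2 the least in wild type (adjusted p = 0.0307). The call of Rfc2 in wild-type cells was lost without any of WT_CD3CD28 replicates 1, 2 and 3 or WT_CD3 replicates 2 and 4 (log2 differences 0.55, 0.58, 0.54, 0.56 and 0.52).

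RPA, the trimer that coats single-stranded DNA, was split. Rpa3, its smallest subunit, had log2 levels of 10.64, 10.70, 10.55 and 10.61 in KO_CD3CD28, against 8.58, 8.29, 9.29 and 9.94 in KO_CD3, and 10.59, 10.64, 10.65 and 10.37 in WT_CD3CD28, against 9.59, 9.40, 9.98 and 9.28 in WT_CD3. KO_CD3 replicates 3 and 4 were again above replicates 1 and 2. The log2 difference of Rpa3 was 1.60 in knockout cells (adjusted p = 7.12e-05) and 1.00 in wild-type cells (adjusted p = 0.00543), and a dimmer probe gave 1.21 and 0.76. Rpa2 rose by 1.29 and 0.88 log2 units. Rpa1, the large subunit that makes most of the DNA contact, had log2 levels of 10.10, 10.17, 10.07 and 10.03 in KO_CD3CD28, against 9.63, 9.75, 10.07 and 9.79 in KO_CD3, and 10.18, 10.22, 10.24 and 10.09 in WT_CD3CD28, against 9.62, 9.51, 10.01 and 9.93 in WT_CD3. Its knockout groups overlapped near 10.07. The log2 difference of Rpa1 was 0.28 in knockout cells (adjusted p = 0.0553; block, adjusted p = 0.0327) and 0.41 in wild-type cells (SE 0.11, adjusted p = 0.00809). Without KO_CD3 replicate 3 the knockout difference was 0.36 and was called (adjusted p = 0.0151), and it was also called without WT_CD3 replicate 2 or 3, at 0.28 in each case.

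The priming enzymes, polymerase alpha and primase, all rose in both genotypes. Pola1, the catalytic subunit of polymerase alpha, had log2 levels of 10.91, 10.80, 11.02 and 10.94 in KO_CD3CD28, against 8.35, 8.09, 8.83 and 8.79 in KO_CD3, and 10.95, 10.99, 10.97 and 11.22 in WT_CD3CD28, against 9.07, 9.14, 9.61 and 9.04 in WT_CD3. Costimulated arrays of both genotypes fell in one narrow band. The log2 difference of Pola1 was 2.40 in knockout cells (SE 0.15, adjusted p = 4.09e-09) and 1.81 in wild-type cells (SE 0.15). Pola2, its regulatory subunit, moved least of the 4, with log2 levels of 9.84, 9.77, 9.08 and 9.17 in KO_CD3CD28, against 8.17, 8.05, 8.36 and 7.63 in KO_CD3, and 9.78, 9.80, 9.72 and 9.14 in WT_CD3CD28, against 8.72, 8.66, 9.07 and 8.70 in WT_CD3. In Pola2 the high arrays were replicates 1 and 2 of KO_CD3CD28 and replicates 1 to 3 of WT_CD3CD28. Its log2 differences were 1.41 and 0.82. Prim1, the catalytic primase, and Prim2, its partner, rose by 2.12 and 2.18 log2 units in knockout cells and by 1.30 and 1.53 in wild-type cells.

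Of the 5 subunits of polymerases delta and epsilon, all rose in knockout cells and 3 in wild-type cells. Pole, the leading-strand polymerase, had log2 levels of 10.26, 10.31, 10.22 and 10.37 in KO_CD3CD28, against 7.47, 7.0, 8.23 and 7.79 in KO_CD3, and 10.38, 10.40, 10.44 and 10.40 in WT_CD3CD28, against 8.61, 8.39, 9.31 and 8.62 in WT_CD3. All 8 costimulated values lay between 10.22 and 10.44. For Pole the log2 difference was 2.67 in knockout cells (SE 0.21, adjusted p = 3.50e-08) and 1.67 in wild-type cells (SE 0.21, adjusted p = 1.11e-05). Pold1, the catalytic subunit of the lagging-strand polymerase, had log2 levels of 9.55, 9.43, 8.52 and 8.45 in KO_CD3CD28, against 8.36, 8.26, 8.07 and 7.80 in KO_CD3, and 9.47, 9.30, 9.46 and 8.39 in WT_CD3CD28, against 8.58, 8.66, 8.81 and 8.52 in WT_CD3. In these values 3 arrays stood about 1 log2 unit below the rest of their group, namely replicates 3 and 4 of KO_CD3CD28 and replicate 4 of WT_CD3CD28. For Pold1 the log2 difference was 0.86 in knockout cells (adjusted p = 0.012) and 0.52 in wild-type cells (adjusted p = 0.146, and 0.036 with the replicate block). Without WT_CD3CD28 replicate 4 the wild-type difference was 0.77 and was called (adjusted p = 0.0144), and without KO_CD3CD28 replicate 1 the knockout call was lost, at 0.68. Pold2, a delta accessory subunit, showed the same 3 low arrays, with log2 levels of 11.03, 10.95, 9.54 and 9.72 in KO_CD3CD28 and 11.23, 10.95, 10.93 and 9.50 in WT_CD3CD28. Its log2 difference was 1.67 in knockout cells (adjusted p = 0.00197) and 0.92 in wild-type cells (adjusted p = 0.0789, 0.00526 with the block, and 0.00666 without WT_CD3CD28 replicate 4, at 1.30). Pold3 and Pole2, further accessory subunits, rose by 1.76 and 1.56 in knockout cells and by 1.27 and 0.95 in wild-type cells on the log2 scale.

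The enzymes that finish Okazaki fragments rose in both genotypes. Dna2, a nuclease and helicase that cuts long flaps, had log2 levels of 9.20, 9.17, 8.43 and 8.50 in KO_CD3CD28, against 6.48, 6.27, 6.72 and 6.76 in KO_CD3, and 9.31, 9.39, 8.66 and 8.77 in WT_CD3CD28, against 6.99, 6.73, 7.01 and 6.55 in WT_CD3. Replicates 1 and 2 were the high ones of the costimulated groups in both genotypes. Dna2 had a log2 difference of 2.27 in knockout cells (SE 0.20) and 2.21 in wild-type cells (SE 0.20), the second largest of the 41 by the mean of both. Lig1, the ligase that joins the fragments, had log2 levels of 10.44, 10.43, 10.16 and 10.16 in KO_CD3CD28, against 7.97, 7.92, 8.53 and 8.61 in KO_CD3, and 10.43, 10.46, 10.57 and 10.31 in WT_CD3CD28, against 9.04, 9.07, 9.65 and 9.11 in WT_CD3. Its groups were far apart in knockout cells and closer in wild-type cells, where WT_CD3 replicate 3 was high. For Lig1 the log2 difference was 2.04 in knockout cells (SE 0.16, adjusted p = 4.48e-08) and 1.23 in wild-type cells (SE 0.16, adjusted p = 2.10e-05). Fen1, the flap endonuclease, rose by 2.0 and 1.42 log2 units.

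The factors that turn the MCM ring into the CMG helicase, Cdc45 and the 4 GINS subunits, rose in both genotypes. Cdc45 had log2 levels of 10.65, 10.60, 10.40 and 10.45 in KO_CD3CD28, against 7.65, 7.35, 8.32 and 7.96 in KO_CD3, and 10.66, 10.67, 10.60 and 10.26 in WT_CD3CD28, against 8.67, 8.62, 9.39 and 8.64 in WT_CD3. WT_CD3 replicate 3 was well above the other arrays of its group, and WT_CD3CD28 replicate 4 somewhat below. For Cdc45 the log2 difference was 2.70 in knockout cells (SE 0.19, 6.50-fold) and 1.72 in wild-type cells (SE 0.19, 3.29-fold). Gins4, the smallest mover of the 5, had log2 levels of 10.90, 10.74, 10.75 and 10.70 in KO_CD3CD28, against 9.59, 9.41, 10.17 and 10.08 in KO_CD3, and 10.87, 10.82, 10.76 and 10.93 in WT_CD3CD28, against 9.93, 10.01, 10.43 and 10.19 in WT_CD3. Its groups stayed apart, with log2 differences of 0.96 and 0.71. Gins1, Gins2 and Gins3 rose by 2.29, 1.38 and 1.38 log2 units in knockout cells and by 1.24, 0.86 and 1.23 in wild-type cells.

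Origin firing and the brakes on relicensing followed. Cdc7, the kinase that fires origins, had log2 levels of 9.03, 8.92, 9.25 and 9.17 in KO_CD3CD28, against 7.46, 7.40, 7.87 and 8.0 in KO_CD3, and 9.03, 9.10, 9.07 and 9.40 in WT_CD3CD28, against 7.84, 7.78, 8.31 and 7.97 in WT_CD3. This gave a log2 difference of 1.41 in knockout cells and 1.18 in wild-type cells. Dbf4, the activating subunit of Cdc7, had log2 levels of 10.32, 10.29, 10.30 and 10.22 in KO_CD3CD28, against 8.86, 9.00, 9.21 and 9.41 in KO_CD3, and 10.38, 10.30, 10.21 and 10.48 in WT_CD3CD28, against 9.04, 8.97, 9.45 and 9.24 in WT_CD3. The KO_CD3 and WT_CD3 values overlapped for both genes, and the log2 difference of Dbf4 was 1.16 and 1.17. Dtl, which directs a ubiquitin ligase to the licensing factor Cdt1 on PCNA, had log2 levels of 10.21, 10.12, 10.08 and 10.13 in KO_CD3CD28, against 6.84, 6.64, 8.0 and 7.49 in KO_CD3, and 10.07, 10.15, 10.07 and 10.22 in WT_CD3CD28, against 8.34, 8.41, 9.06 and 8.42 in WT_CD3. KO_CD3 replicates 1 and 2 were lowest, and all 8 costimulated values lay between 10.07 and 10.22. For Dtl the log2 difference was 2.89 in knockout cells (SE 0.22, 7.42-fold) and 1.57 in wild-type cells (SE 0.22, 2.97-fold). Gmnn, geminin, the inhibitor of Cdt1, had log2 levels of 10.03, 9.92, 10.05 and 10.00 in KO_CD3CD28, against 7.09, 7.08, 7.94 and 7.98 in KO_CD3, and 9.79, 9.93, 10.00 and 9.61 in WT_CD3CD28, against 8.15, 8.14, 8.80 and 8.12 in WT_CD3. It rose by 2.48 and 1.53 log2 units.

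Among the genes that steady the fork and rebuild chromatin behind it, Tipin and both CAF-1 subunits rose strongly and Timeless weakly. Tipin, the partner of Timeless in the fork protection complex, had log2 levels of 11.49, 11.51, 11.41 and 11.46 in KO_CD3CD28, against 8.98, 9.01, 9.59 and 9.84 in KO_CD3, and 11.31, 11.57, 11.36 and 11.46 in WT_CD3CD28, against 9.92, 10.00, 10.46 and 10.05 in WT_CD3. This gave a log2 difference of 2.11 in knockout cells (SE 0.16) and 1.32 in wild-type cells (SE 0.16). Timeless had log2 levels of 8.40, 8.22, 8.07 and 8.05 in KO_CD3CD28, against 7.47, 7.46, 7.65 and 7.72 in KO_CD3, and 8.23, 8.24, 8.52 and 8.13 in WT_CD3CD28, against 7.82, 7.88, 8.07 and 7.96 in WT_CD3. The groups of Timeless did not overlap but came close, and its log2 differences were 0.61 (adjusted p = 0.000164) and 0.35 (adjusted p = 0.0168). The wild-type call was lost without WT_CD3 replicate 1, at 0.31, or without WT_CD3CD28 replicate 3, at 0.27. Wdhd1, which links polymerase alpha to the helicase, rose by 1.44 and 0.93. Chaf1a, the large subunit of the histone depositor CAF-1, had log2 levels of 10.34, 10.18, 9.74 and 9.60 in KO_CD3CD28, against 7.26, 7.19, 7.58 and 8.11 in KO_CD3, and 10.28, 10.27, 10.21 and 9.67 in WT_CD3CD28, against 8.53, 8.60, 9.05 and 8.39 in WT_CD3. Chaf1b, the middle subunit, had log2 levels of 10.31, 10.30, 9.97 and 10.08 in KO_CD3CD28, against 8.35, 7.84, 8.53 and 7.69 in KO_CD3, and 10.25, 10.30, 10.29 and 10.13 in WT_CD3CD28, against 8.78, 8.76, 9.20 and 8.59 in WT_CD3. The KO_CD3 arrays were the lowest for both subunits. The log2 differences were 2.43 and 1.46 for Chaf1a and 2.06 and 1.41 for Chaf1b.

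**Figure D2:**
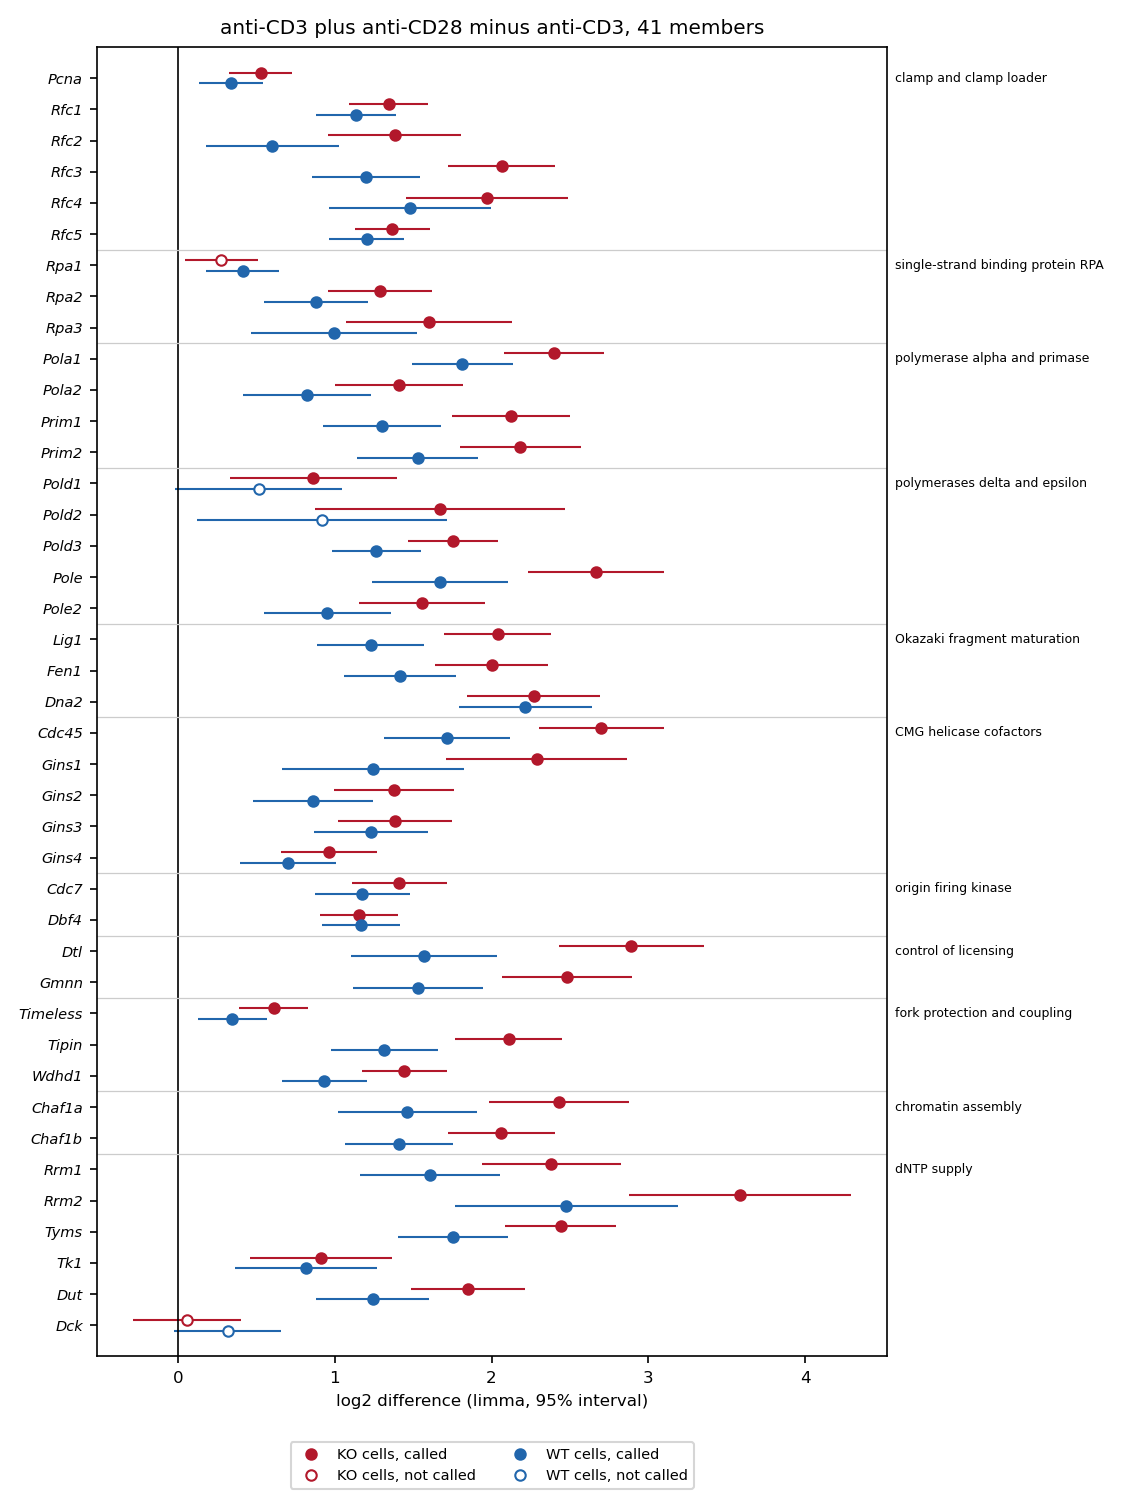
Log2 difference between anti-CD3 plus anti-CD28 and anti-CD3 alone (horizontal axis) for each of the 41 genes (rows, by role) in knockout and wild-type cells, with limma 95% intervals from 4 arrays a group; open circles did not pass the test. Rrm2 is the furthest to the right in both genotypes (3.58 and 2.48), and Dck has 0.06 and 0.32.

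The next comparison asks what the loss of Dec1 changes under anti-CD3 alone. Replication genes were lower in knockout cells. Of the 41, 11 fell and 0 rose in limma, against 0.749% of all genes called lower and 0.28% called higher. The 11 were Dtl, Lig1, Pole, Cdc45, Chaf1a, Prim1, Tipin, Pola1, Tyms, Chaf1b and Rfc3, drawn from 9 of the 11 role groups. None of RPA or of the Cdc7 kinase was among them. The median log2 difference of the 41 genes was -0.56 where that of all genes was 0.03, and 39 of the 41 values were below 0. The values of 18 genes did not overlap between the 4 KO_CD3 and the 4 WT_CD3 arrays, with the knockout lower, against 6.63% of all genes, and those of 0 genes with the knockout higher, against 8.06%. When every array was centred on the median of all its probes, 14 of the 41 genes were called. Over all genes, 248 were then called lower and 13 higher, against 123 and 46 in the main fit. Thus 4.98% rather than 27.2% of all calls were higher (16.7% when centred on the tested genes).

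The largest fall was that of Dtl, whose log2 levels on KO_CD3 arrays all lay under those of WT_CD3, with a log2 difference of -1.32 (SE 0.22, 2.49-fold lower, adjusted p = 0.0163). The fit shared its estimate of spread over all 4 groups, whose spreads were unequal. The SD of Dtl was 0.62 in KO_CD3 and 0.34 in WT_CD3, against 0.06 in KO_CD3CD28 and 0.07 in WT_CD3CD28. The SEs and p-values under anti-CD3 alone may thus be too small, and those under both antibodies too large. Lig1 fell by 0.96 on the log2 scale (SE 0.16, 1.94-fold, adjusted p = 0.0163), with its highest knockout value, 8.61, under its lowest wild-type value, 9.04. Pole had a log2 difference of -1.11 (SE 0.21, adjusted p = 0.0236) and Chaf1a of -1.11 (SE 0.21, adjusted p = 0.0258), also without overlap. Cdc45 had -1.01 (SE 0.19, adjusted p = 0.0246).
Prim1, the primase, had log2 levels of 9.59, 9.02, 10.01 and 10.13 in KO_CD3, against 10.36, 10.45, 10.92 and 10.43 in WT_CD3, a log2 difference of -0.85 (SE 0.18, adjusted p = 0.0375). Rfc3, a subunit of the clamp loader, had log2 levels of 8.32, 7.93, 8.95 and 8.62 in KO_CD3, against 9.16, 9.14, 9.50 and 8.91 in WT_CD3, and here the top knockout array reached just past the lowest wild-type one. Rfc3 had a log2 difference of -0.72 (SE 0.16, adjusted p = 0.0451). Tipin, Pola1, Tyms and Chaf1b had log2 differences of -0.75, -0.70, -0.75 and -0.73, with adjusted p of 0.0404 to 0.0438. Rrm2 and Pold2 had log2 differences of similar size, -1.08 and -1.10, but a wider spread (SE 0.34 and 0.38) and were not called (adjusted p = 0.0975 and 0.115), but were with the replicate block (adjusted p = 0.0269 and 0.0136). Pcna was at -0.22 (95% interval -0.43 to -0.02), Dbf4 at -0.05 and Dna2 at -0.26, none of them called. Rpa1 and Dck were the 2 genes with values above 0, at 0.04 and 0.25.

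How many of these genes passed the test depended on single arrays, while the median stayed below 0 in all 30 alternatives run. Without KO_CD3 replicate 2, where 30 genes were at their lowest, or without WT_CD3 replicate 3, where 39 were at their highest, 0 of the 41 were called, against 0.067% and 0.0426% of all genes, and the median log2 differences were -0.55 and -0.47. Without KO_CD3 replicate 1 or WT_CD3 replicate 1, 2 were called, and without WT_CD3 replicate 2, 4 were. Leaving out WT_CD3CD28 replicate 1 or 2 or KO_CD3CD28 replicate 2 gave 5, and WT_CD3CD28 replicate 3 or KO_CD3CD28 replicate 3 or 4 gave 6. Without KO_CD3 replicate 3, 21 were called. Calls over all genes moved as well, and were 0.158% to 0.639% in the fits with 2 to 6 and 2.75% in the fit with 21. With the replicate number as a block 26 fell, the same 11 among them, against 6.56% of all genes called lower and 5.34% called higher in that fit. The further 15 were Rrm1, Rrm2, Dut, Gmnn, Pola2, Prim2, Pold2, Pold3, Pole2, Fen1, Gins1, Gins2, Timeless, Wdhd1 and Rfc2, with adjusted p of 0.00854 to 0.0408. Replicates 1 and 2 alone gave 33 calls, against 8.45% of all genes, at a median of -0.72. Replicates 3 and 4 alone gave 0, as they did over all genes (0%), at a median of -0.43. A fit of only the KO_CD3 and WT_CD3 arrays, without the tighter costimulated groups, also called 0 of the 41. Within replicate numbers 1 to 4 the median log2 difference was -0.61, -0.83, -0.65 and -0.22, with 39, 38, 38 and 32 of the 41 genes lower in knockout cells, and 31 were lower in all 4.

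**Figure D3:**
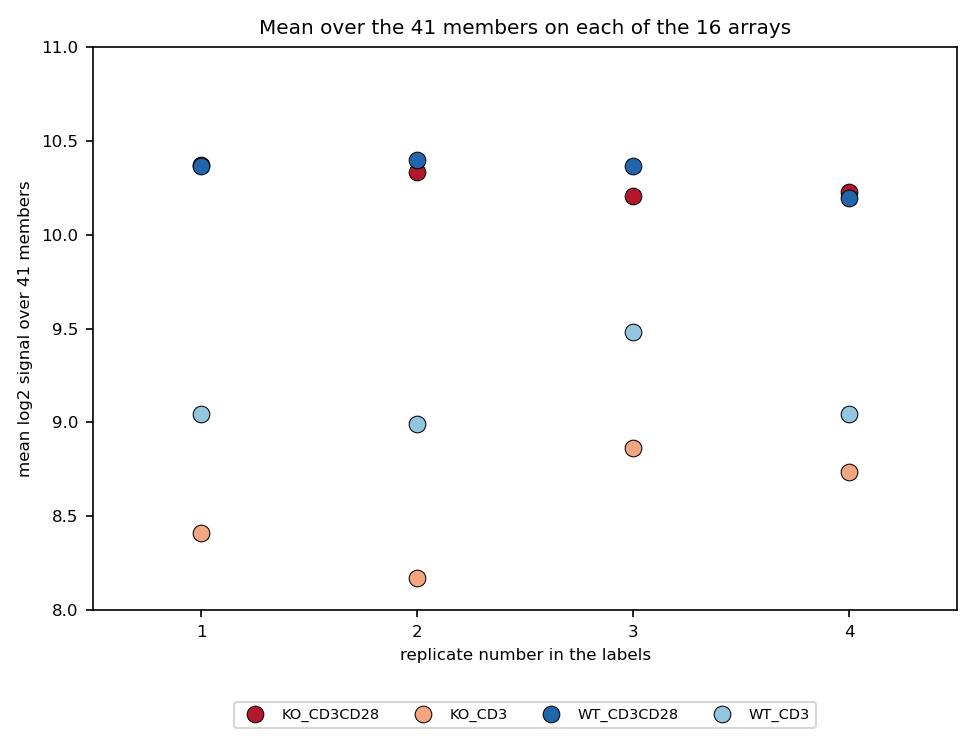
Mean log2 level over the 41 genes on each array (vertical axis) by replicate number (horizontal axis), coloured by group. KO_CD3 arrays (8.17 to 8.87) lie below the WT_CD3 array of the same number (8.99 to 9.48), and the 8 costimulated arrays lie between 10.19 and 10.40.

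The same comparison under both antibodies found no such difference. In limma 0 of the 41 genes were called, against 0.00609% of all genes, and 0 had an unadjusted p under 0.05, against 3.32% of all genes. The values of 1 gene, Pole (-0.11), did not overlap, with the knockout lower, against 0.645% of all genes. The median log2 difference was -0.04 and the values ran from -0.34 for Pold2 to 0.17 for Gmnn. The array means over the 41 genes were 10.29 ± 0.08 in KO_CD3CD28 and 10.33 ± 0.09 in WT_CD3CD28 (SD, n = 4 each), against 8.55 ± 0.31 in KO_CD3 and 9.14 ± 0.23 in WT_CD3. The spread between arrays was thus smaller with costimulation. The fit shared its spread with the anti-CD3 groups, so SEs and p-values here may be too large for genes such as Dtl (SD 0.06 and 0.07). The count of 0 with an unadjusted p under 0.05 is limited by this. The adjusted count was 0 in all 30 alternatives, among them a fit of only the 2 groups compared. Dtl was at a log2 difference of 0.01 (SE 0.22), Lig1 at -0.15 and Rrm2 at 0.03. The interval of Dtl ran from -0.46 to 0.47 and that of Pole from -0.55 to 0.32, which leaves out differences of the size seen under anti-CD3 alone for these genes. Pold2 and Pold1 had the widest spread, from the 3 low arrays described above, and the interval of Pold2 ran from -1.14 to 0.45.

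**Figure D4:**
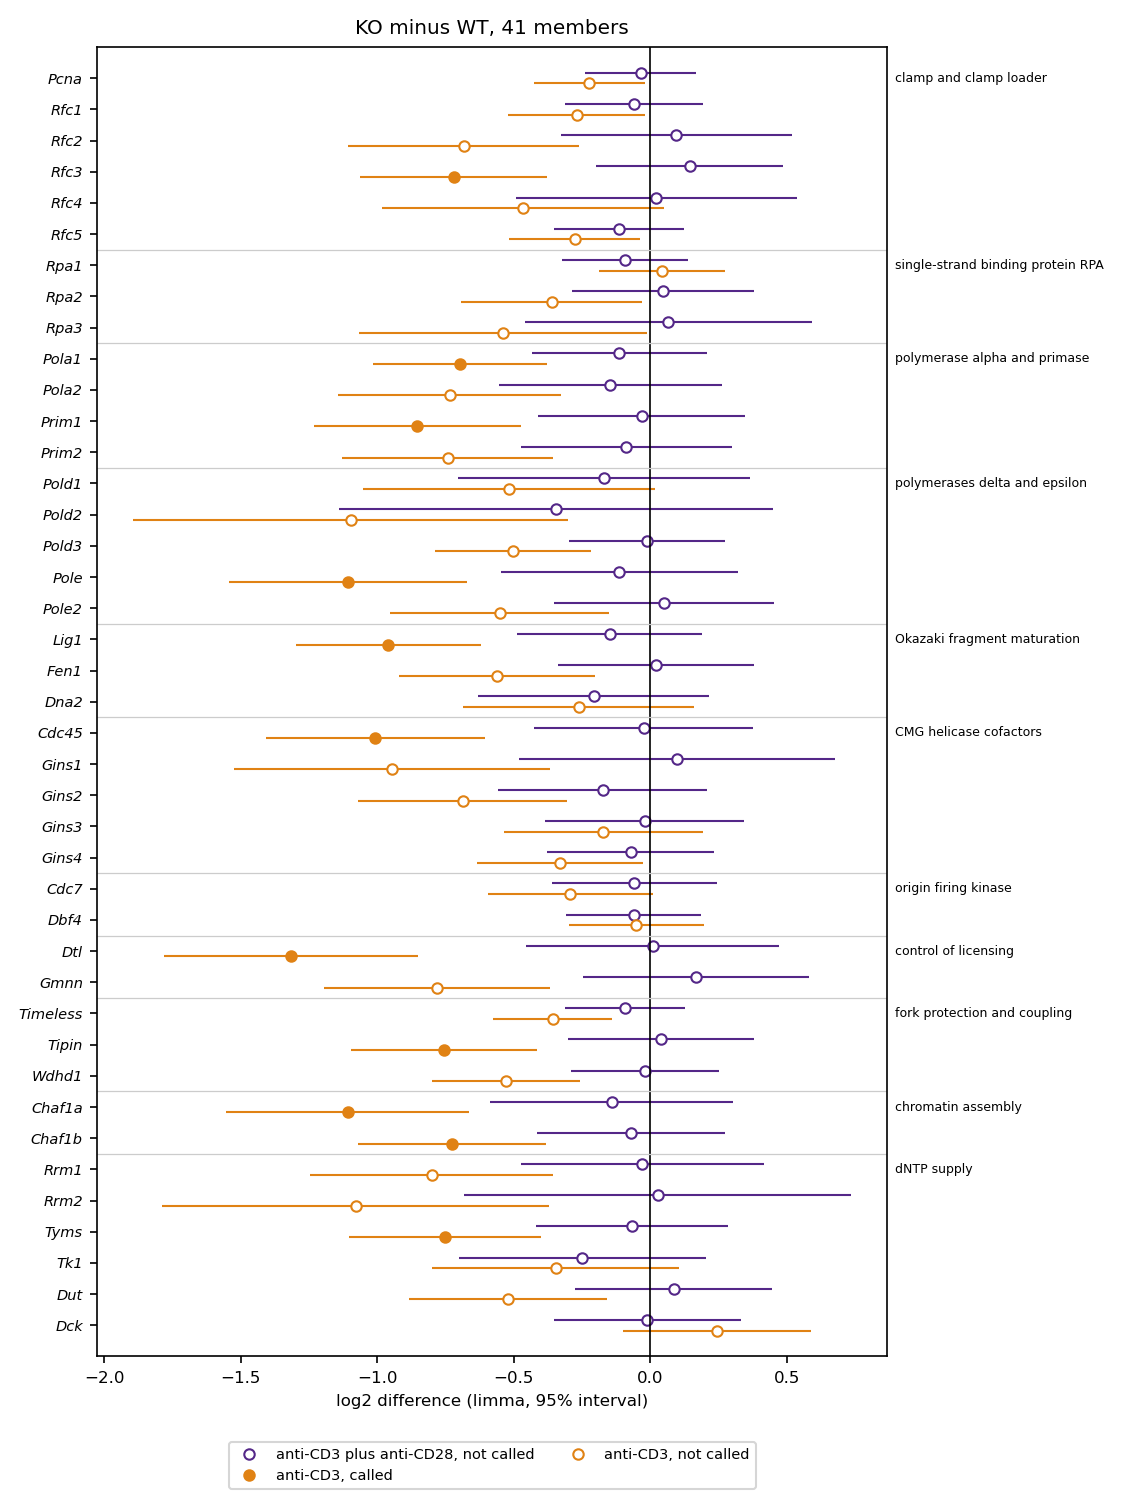
Log2 difference between knockout and wild-type cells (horizontal axis) for each of the 41 genes (rows, by role) under anti-CD3 plus anti-CD28 and under anti-CD3 alone, with limma 95% intervals from 4 arrays a group; open circles did not pass the test. With both antibodies the values lie between -0.34 and 0.17, and under anti-CD3 alone they reach down to -1.32 for Dtl.

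Whether the genotypes responded differently to CD28 was tested as an interaction, which uses the same arrays as the comparisons above. The interaction log2 difference was above 0, meaning a larger CD28 difference in knockout cells, for 38 of 41 genes, with a median of 0.59 against 0.0013 over all genes. In limma 0 of the 41 passed the adjusted threshold, as did 0% of all genes, and 23 had an unadjusted p under 0.05, against 5.28% of all genes. The largest values were 1.32 for Dtl (SE 0.31), 1.11 for Rrm2 (SE 0.47) and 1.04 for Gins1 (SE 0.39), with adjusted p of 0.905 for each. Rpa1, Dbf4 and Dck were below 0, at -0.14, -0.01 and -0.26. With replicates 1 and 2 alone 11 genes passed, namely Dtl, Chaf1a, Lig1, Gmnn, Gins1, Rfc3, Rpa3, Cdc45, Tipin, Tyms and Pole, against 0.487% of all genes, and with replicates 3 and 4 alone 0 did.

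Genes around this machinery moved with it. Of all genes, 20.4% rose with costimulation in knockout cells and 16% in wild-type cells. Under anti-CD3, 0.749% of all genes were called lower in knockout cells, and 6.56% with the replicate block. Of 14 genes of the MCM ring and origin licensing, 13 rose with costimulation in knockout cells and 14 in wild-type cells, at medians of 1.54 and 0.92 on the log2 scale, and 5 fell in knockout cells under anti-CD3 (Orc1, Mcm2, Mcm3, Mcm5 and Mcm7), or 9 with the replicate block. Orc1, the largest subunit of the origin recognition complex, rose by 2.90 and 2.12 with costimulation and had a genotype difference of -0.77 under anti-CD3 (SE 0.11, adjusted p = 0.00586). Of 28 tested fork and firing genes outside the 41 (29 listed), 25 rose and 1 fell in knockout cells and 22 rose and 1 fell in wild-type cells, and 7 fell in knockout cells under anti-CD3, or 16 with the block. Mcm10, which helps to activate the helicase, rose by 2.71 and 1.99 and was lower by genotype (-0.75, adjusted p = 0.0313). Nasp, a histone chaperone, rose by 1.40 and 0.89. The gene of this list that fell with costimulation, as 17.6% and 13% of all genes did in knockout and wild-type cells, was Pold4, the small subunit of polymerase delta, which fell by 0.93 on the log2 scale in knockout cells and by 1.55 in wild-type cells (adjusted p = 0.000705 and 8.26e-06).

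Other nucleotide supply genes were mixed. Of 23 tested (26 listed), 13 rose and 2 fell with costimulation in knockout cells, 8 rose and 4 fell in wild-type cells, where 20.4% and 16% of all genes rose and 17.6% and 13% fell. Between genotypes under anti-CD3, 0 were called, against 0.749% of all genes lower and 0.28% higher. With the block 11 rose and 4 fell in wild-type cells, and 11 fell in knockout cells under anti-CD3, Ctps and Shmt1 among them, against 6.56% of all genes called lower in that fit. Ctps, CTP synthase, rose by 1.85 and 1.40 log2 units and Shmt1, a serine hydroxymethyltransferase that feeds thymidylate synthesis, by 1.46 and 1.08. The mitochondrial salvage kinases Tk2 and Dguok, for pyrimidine and purine deoxynucleosides, fell in both genotypes, with log2 differences of -0.56 and -0.63 for Tk2 and -0.49 and -0.46 for Dguok. Of 13 E2F factors and pocket proteins 8 rose and 1 fell in knockout cells and 7 rose and 1 fell in wild-type cells. E2f8 rose by 4.10 and 3.10, E2f3 by 2.76 and 1.96 and E2f1 by 0.71 and 0.70, and the pocket protein Rbl2, known from resting cells, fell, with -0.80 and -0.79. E2f1 was not called by genotype under anti-CD3 (-0.04, adjusted p = 0.849), E2f8 fell (-1.24, adjusted p = 0.0483) and Myc, a driver of growth, fell by 0.60 on the log2 scale (adjusted p = 0.0421). All 15 tested genes of mitosis (16 listed) rose in both genotypes, at medians of 3.41 and 2.84. Of them 3 fell in knockout cells under anti-CD3, or 10 with the block, where 0.749% and 6.56% of all genes did. Mki67 had a genotype difference of -0.92 (adjusted p = 0.0917, and 0.0102 with the block). Of the E2F factors and pocket proteins, 1 fell between genotypes under anti-CD3, or 2 with the block, against the same shares of all genes.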

How the data were processed

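The authors deposited log2 values, made with RMA per the submitters' processing notes (background correction, quantile normalization and probe set summary). Its version and the array design's genome build are not given in the sources used here. Per the labels' protocols, Trizol extracts of total RNA were labelled with biotin by a core facility. The values cover 35556 probes on 16 arrays, from 1.84 to 14.0, with 0 missing and array medians of 6.64 to 6.97. The number of arrays limits the precision.

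Of 23410 probes in the probe table given with the series, 21789 had 1 symbol and 1621 several, and 12146 probes were not in it. Probes were kept if they passed the 25th percentile of 4 or more arrays (17930 probes, 16427 genes), with the probe of highest mean for each of the 861 genes that had more than 1. Near background means a median rank under the 40th percentile of all probes in that group. A mean per group was fitted over 16 arrays with limma 3.58.1 (R 4.3.3; 12 residual degrees of freedom, 4.92 prior) and p-values were adjusted by Benjamini-Hochberg over all genes at 0.05. The fit was tested on simulated data.

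Deviations from the group mean correlated between arrays of the same replicate number in every pair. Correlations between stimuli were 0.22 to 0.51 in knockout cells and 0.16 to 0.37 in wild-type cells. Between genotypes they were 0.18 to 0.45 under anti-CD3 and 0.20 to 0.59 under both antibodies. Medians between unlike numbers were -0.16, -0.06, -0.13 and -0.37 in the same order. Because replicates 1 and 2 parted from 3 and 4 in every group, this check cannot tell pairing by number from that split. Xist level also differed between the genotypes within numbers 1, 2 and 4. The replicate number was taken to pair arrays, and a fit with it as a block (9 residual degrees of freedom) is given beside the calls and counts it changes. The pairing comes from the numbers in the titles, not from a stated animal or day.

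Motifs were searched on both strands of RefSeq promoter windows (GRCm38.p6). Alternatives covered normalization, filter, probe choice, variance model, array weights, block, arrays fitted, an Xist term and leaving out arrays; centring on all probes and leaving out 2 arrays together were added after seeing the data. The 41 genes, the role groups, the other gene lists and the markers were chosen with earlier results of these data known. Every array value is printed for Pcna, for the genes with the largest and smallest mean CD28 difference of each role group, and for genes not called in any comparison. The same holds for the called gene with the smallest p of each group, except that Prim1 and Rfc3 have only their anti-CD3 values printed. Of the other lists, up to 2 genes in each direction with the smallest p for the CD28 difference in knockout cells are named, with Bhlhe40, Mki67, E2f1 and Myc. Summaries and figures were made in Python 3.11.15 (pandas 2.3.3, numpy 2.4.6, matplotlib 3.10.9).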

Additional observations from a re-analysis of the deposited data

Results flagged for a closer look

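In 22 of 164 sets of 4 arrays (41 genes in 4 groups, 13.4%) a single array lay far from the other 3, by a gap over Dixon's 95% critical share of the whole range. Chance alone sets apart about 1 in 20. The 22 sets belong to 18 genes, and 2 arrays account for most of them.

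WT_CD3 replicate 3 was the high array in 9 sets, all of log2 levels: Cdc45 at 9.39 (others 8.62 to 8.67), Dtl at 9.06 (8.34 to 8.42), Gmnn at 8.80 (8.12 to 8.15), Lig1 at 9.65 (9.04 to 9.11), Pola1 at 9.61 (9.04 to 9.14), Pola2 at 9.07 (8.66 to 8.72), Prim1 at 10.92 (10.36 to 10.45), Rfc4 at 9.79 (9.17 to 9.22) and Rrm1 at 10.69 (9.98 to 10.09). The genes cover priming, the helicase, the clamp loader, ligation, licensing control and ribonucleotide reductase.

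WT_CD3CD28 replicate 4 was the low array in 9 sets: Cdc45 at 10.26 (others 10.60 to 10.67), Chaf1a at 9.67 (10.21 to 10.28), Dut at 9.99 (10.33 to 10.38), Pola2 at 9.14 (9.72 to 9.80), Pold1 at 8.39 (9.30 to 9.47), Pold2 at 9.50 (10.93 to 11.23), Rpa2 at 9.49 (10.13 to 10.21), Rrm2 at 11.26 (11.46 to 11.50) and Tk1 at 8.91 (9.75 to 9.76). The same array was the high one for Pola1, at 11.22 (10.95 to 10.99). Pold1, Pold2 and Tk1 were also low on replicates 3 and 4 of KO_CD3CD28.

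The 3 others were Rfc5, low on KO_CD3 replicate 2 at 9.10 (others 9.42 to 9.45), Pold3, high on KO_CD3CD28 replicate 3 at 10.63 (10.58 to 10.59), and Dut, high on KO_CD3CD28 replicate 4 at 10.44 (10.31 to 10.32), the last 2 by small amounts in very tight groups.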

How the results depend on the processing

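Over 30 alternatives 37 to 40 of the 41 genes were called for the CD28 difference in knockout cells and 30 to 41 in wild-type cells, the lowest with replicates 3 and 4 alone, and 0 for the genotype under both antibodies. Calls over all genes moved too. For the CD28 difference in knockout cells they were 38% of all genes in the main fit, 44.9% with array weights and 17.6% with replicates 3 and 4 alone. The genotype count under anti-CD3 (11) was the one that moved: 6 after a second quantile normalization, 24 with array weights, 26 with the replicate block, 0 with only the arrays of the 2 groups compared, 33 with replicates 1 and 2 alone, 0 with replicates 3 and 4 alone, 5 with a term for the Xist level and 0 without WT_CD3 replicate 3 and WT_CD3CD28 replicate 4 together. Leaving out each array in turn gave 0 to 21, against 0.0426% to 2.75% of all genes. After the second quantile normalization 97 of all genes were called lower and 30 higher, against 123 and 46 in the main fit. The shares of all genes with the block and with 2 replicates alone are given above. For the other settings they are not given here, so those counts are not set against all genes. The interaction count was 11 with replicates 1 and 2 alone and 0 in the other 28 alternatives. No gene changed direction past the threshold. The fits on 2 replicates or 2 groups hold fewer arrays. The fit of the 2 anti-CD3 groups also leaves out the costimulated groups, whose spread was smaller. The cause of the shifts was not tested. With the replicate block the calls of Rpa1 in knockout cells, of Pold1, Pold2 and Dck in wild-type cells and of 15 genes between genotypes under anti-CD3 were gained, and it changed no other call among the 41 genes. In the shorter promoter window, from 100 bases before the start, the cell cycle element stood in 13.16% of windows (12.84% of all promoters) the E2F site in 18.42% (1.27%), the E-box in 13.16% (4.35%) and the CCAAT box in 34.21% (23.38%). All p-values rest on 4 arrays a group and their number limits the precision.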
